A study of Mus musculus with 6 samples.

Results

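The genes described here are 10 transcripts that mark the thermogenic programme of brown adipocytes, Ucp1, Otop1, Cidea, Elovl3, Dio2, Cox8b, Cox7a1, Cpt1b, Fabp3 and Prdm16, measured in whole mouse lung. They were taken from the count table by symbol, with no measured value in the rule, and each symbol was found once among 41388 genes. The list itself was drawn up with earlier results of these data known. RNA-seq compared 3 lungs of wild-type (WT) mice with 3 lungs of Zpbp2 knockout (KO) mice, all adult, with no treatment named, and on the C57BL/6J background, collected at Zeitgeber time (ZT) 7, in the light phase. The KO mice lack the 5' part of Zpbp2, a sperm zona pellucida binding protein gene that is also expressed outside the testis, from the germline onwards and thus in every cell, and the WT mice came from the same colony. By the strain name the deletion comes from a 129 strain, so DNA that flanks the deleted gene may also differ between the groups. The sex of each mouse was not given in the sources used here.

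Brown adipocytes burn fatty acids and glucose to make heat. UCP1, in the inner mitochondrial membrane, lets protons return to the matrix without making ATP. Noradrenaline, acting through the beta 3-adrenergic receptor and cyclic AMP, raises both lipolysis and the transcription of Ucp1 and Dio2, with PPARs, PGC-1alpha and PRDM16 among the regulators of the programme. Brown fat lies around the great vessels, the heart and the hilum of the lung in the mouse chest, and some of its genes are also used by heart and skeletal muscle. In RNA of a whole organ, fewer cells of a type and less RNA per cell cannot be told apart.

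Ucp1 was present at 6.26 to 132 CPM (counts scaled to 1e6 per library) in the WT lungs and at no more than 0.137 CPM in the KO lungs, the widest gap of the 10 genes. Cidea, Otop1, Dio2, Cpt1b, Cox7a1, Cox8b and Fabp3 were also lower in every KO library than in every WT library, as were 20.8% of all genes tested. Elovl3 and Prdm16 overlapped between the groups. The group means of the 8 genes that did not overlap differed by 2.15-fold (Fabp3) to 591-fold (Ucp1). With KO2 and KO3 counted as 1 sample, edgeR's quasi-likelihood test, the test used throughout, gave none of the 10 differences an adjusted p of 0.05 or less, while 0.906% of all genes tested were called lower. DESeq2 on the same samples called 8 of the 10 lower (10.4% of all genes), edgeR with at least 10 counts asked of every sample called 2 of the 7 it tested (2.26% of all genes; Ucp1, Otop1 and Elovl3 were not tested), and edgeR on the 6 libraries counted separately called 8 (9.07% of all genes).

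Each library held 59134950 to 71354388 counts over 23070 to 23711 detected genes, so that 3 counts corresponded to 0.0410 to 0.0514 CPM. The targeted gene, Zpbp2, had 20, 15 and 7 counts in WT1, WT2 and WT3 and 1, 0 and 0 counts in KO1, KO2 and KO3. KO2 and KO3 differed by 1.71 times the variance of counting (median over genes) in the class of 20 to 200 counts, where the other pairs within a group had 1.85 to 3.77 times. In the class of 20000 counts or more KO2 and KO3 reached 3.37 times and the other pairs 37.9 to 162 times, so that the higher classes set KO2 and KO3 apart and the lowest did little. KO2 and KO3 were therefore summed and counted as 1 sample in the tests (3 WT against 2 KO samples), and every KO mean ± SD is over KO1 and the mean of KO2 and KO3. The labels and the study list KO2 and KO3 as separate mice, so the sum rests on their counts alone. WT3 and KO1 stood apart from the other libraries. Their transcripts of 15 squamous epithelium markers summed to 4641 and 8888 CPM, and those of 22 skeletal muscle markers to 5083 and 7532 CPM, against at most 18.6 and 163 CPM elsewhere. Results are therefore also given for WT1 and WT2 against KO2 and KO3. The labels do not say which library came from which dissection or day, and p-values measure only the spread between these samples.

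**Figure D1:**
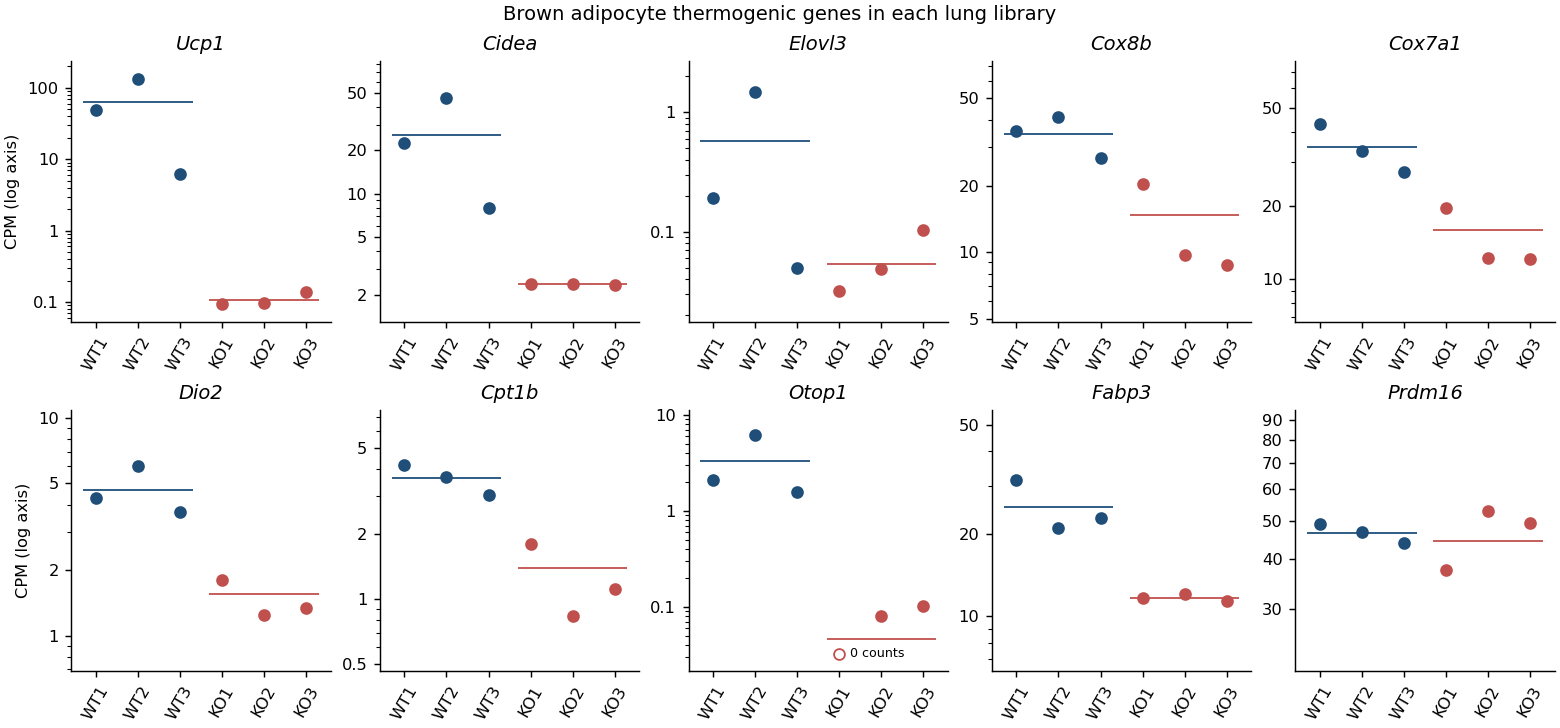
CPM (log axes) of the 10 brown adipocyte thermogenic genes in each library, WT in blue and KO in red, with lines at the group means (the KO line over KO1 and the mean of KO2 and KO3). Ucp1 lies between 6.26 and 132 CPM in WT and at or below 0.137 CPM in KO, whereas the Prdm16 values of the groups overlap, and the open circle marks Otop1 at 0 counts in KO1.

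Of the 10 genes, 7 had a promoter sequence in RefSeq for GRCm38.p6, and the 250 bases before the RefSeq start are shown for 4 that stand for different sizes of difference. Ucp1 showed the largest difference between the groups, Dio2 an intermediate one, and the mitochondrial subunit genes Cox8b and Cox7a1 are members with a KO1 value well above those of KO2 and KO3. Capitals mark matches to the motifs searched on both strands. These were the cyclic AMP response element TGACGTCA and its core TGACG, which it contains, the nuclear receptor core motif AGGTCA, the estrogen-related receptor element TCAAGGTCA, which contains that core, the TATA box TATAAA, the CCAAT box CCAAT and the GC box GGGCGG. Each sequence runs 5' to 3' on the strand of its gene, which was the plus strand for Ucp1 (chr8:83290098-83290347) and Cox7a1 (chr7:30183921-30184170) and the minus strand for Dio2 (chr12:90739039-90739288) and Cox8b (chr7:140900447-140900696). The RefSeq start of Dio2 lies 600 bases upstream of the GENCODE gene start used below, and no GENCODE transcript of Dio2 was found to start in the RefSeq window. For Ucp1 and Cox8b the starts lie 4 and 0 bases apart, and the RefSeq start of Cox7a1 lies within the GENCODE gene.
Ucp1: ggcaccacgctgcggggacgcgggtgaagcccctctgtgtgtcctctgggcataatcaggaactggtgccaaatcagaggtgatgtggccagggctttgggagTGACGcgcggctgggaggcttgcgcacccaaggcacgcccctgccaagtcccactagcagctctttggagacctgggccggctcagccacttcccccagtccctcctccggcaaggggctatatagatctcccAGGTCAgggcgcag
Dio2: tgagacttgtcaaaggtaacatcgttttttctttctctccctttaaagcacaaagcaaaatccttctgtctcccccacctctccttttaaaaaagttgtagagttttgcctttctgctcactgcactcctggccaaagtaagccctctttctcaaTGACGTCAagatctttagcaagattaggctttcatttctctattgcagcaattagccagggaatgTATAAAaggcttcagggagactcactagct
Cox8b: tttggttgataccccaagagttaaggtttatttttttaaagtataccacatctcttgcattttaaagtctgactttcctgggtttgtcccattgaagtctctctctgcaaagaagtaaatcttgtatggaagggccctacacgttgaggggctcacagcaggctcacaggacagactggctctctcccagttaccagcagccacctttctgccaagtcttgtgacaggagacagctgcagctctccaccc
Cox7a1: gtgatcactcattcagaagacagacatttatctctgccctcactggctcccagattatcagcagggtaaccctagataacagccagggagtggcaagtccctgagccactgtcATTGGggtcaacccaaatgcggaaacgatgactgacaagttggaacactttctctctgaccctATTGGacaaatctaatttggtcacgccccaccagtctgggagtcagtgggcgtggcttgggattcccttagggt

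The Ucp1 window held TGACG 147 bases and AGGTCA 14 bases before the start, letters found in 17.8% and 14.0% of the 32851 promoters of the same length. The Dio2 window held the full TGACGTCA 95 bases before the RefSeq start, which 1.55% of all promoters hold, and TATAAA 30 bases before it (12.4%). The Cox7a1 window held CCAAT on the minus strand, printed as ATTGG, 137 and 74 bases before the start (33.8%), and the Cox8b window held none of the motifs. For comparison, 32.7% of promoters held GGGCGG and 0.387% TCAAGGTCA. A match is a description of letters, and no binding was measured.

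Ucp1 encodes the uncoupling protein itself and is the gene that defines brown and beige fat cells. It lies on the plus strand of chromosome 8 (GRCm38, 83290352 to 83298452, ENSMUSG00000031710). WT1, WT2 and WT3 held 3623, 9275 and 376 counts of Ucp1, while KO1, KO2 and KO3 held 6, 6 and 8. These correspond to 49.5, 132 and 6.26 CPM in WT and 0.0951, 0.0967 and 0.137 CPM in KO. The lowest WT library was 45.7-fold above the highest KO library, and the WT libraries themselves spanned 21.1-fold. WT lungs averaged 62.6 ± 64.0 CPM (SD, n = 3) against 0.106 ± 0.0154 CPM (SD, n = 2) for KO, and edgeR's quasi-likelihood test gave a log2 fold change (KO against WT) of -9.15 ± 1.83 (SE) with an adjusted p of 0.0625. Of the 18660 genes tested, only Bmp10, which had no counts in any KO library, had a more negative log2 fold change than Ucp1. Without WT2 the log2 fold change of Ucp1 was -8.00, and that of Cidea was -2.70.

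Otop1, a proton channel found in brown fat, the inner ear and sour taste cells, was the nearest to Ucp1 in pattern of the 15149 genes with a mean of at least 1 CPM. The gene is on the plus strand of chromosome 5 (38275972 to 38304217, ENSMUSG00000051596). The WT libraries held 155, 439 and 95 counts (2.12, 6.25 and 1.58 CPM), and KO1, KO2 and KO3 held 0, 5 and 6 counts. The 0 in KO1 allows a level of up to 0.0476 CPM, and the values of KO2 and KO3 were 0.0806 and 0.103 CPM. WT2 was again the highest library and the lowest WT library was 15.4-fold above the highest KO library. The log2 fold change was -5.92 ± 1.28 (edgeR adjusted p = 0.0700), the 7th most negative of all genes tested. It was -5.09 without WT2, -5.16 without KO1 and -10.79 without KO2 and KO3, where the remaining KO library has no counts and the fitted value is no bound.

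Cidea coats lipid droplets and controls their fusion, and among fat cells it is far more abundant in brown and beige than in white adipocytes. Its gene is on the plus strand of chromosome 18 (67343604 to 67367785, ENSMUSG00000024526). WT1, WT2 and WT3 held 22.6, 46.4 and 7.98 CPM, from 1656, 3253 and 479 counts. The KO libraries held 2.35, 2.37 and 2.33 CPM, from 148, 147 and 136 counts, so the transcript was well above the level of 3 counts in every KO library, unlike that of Ucp1. The groups did not overlap, and all 3 KO libraries lay within 1.02-fold of each other where the WT libraries spanned 5.81-fold. The means of 25.6 ± 19.4 (SD, n = 3) and 2.35 ± 0.00204 CPM (SD, n = 2) gave a log2 fold change of -3.44 ± 0.807 (edgeR adjusted p = 0.0775).

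Elovl3, the elongase of very long chain fatty acids that cold exposure raises in brown fat and that skin glands also use, was near the detection limit. Its locus, on the plus strand of chromosome 19 (46131897 to 46135694, ENSMUSG00000038754), shares 10 exon bases with Pitx3 on the opposite strand. WT2 held 105 counts (1.5 CPM), WT1 14 counts (0.191 CPM) and WT3 3 counts (0.050 CPM). The KO libraries held 2, 3 and 6 counts, of which the 6 in KO3 (0.103 CPM) were above WT3, so the groups overlapped. The log2 fold change of -3.31 ± 1.58 rested on WT2 and WT1, and the edgeR adjusted p was 0.253. Without KO2 and KO3 the log2 fold change was -4.12, from the 2 counts of KO1.

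Dio2 encodes the type 2 deiodinase, which makes active thyroid hormone inside the brown adipocyte and is induced by adrenergic stimulation. Dio2 is on the minus strand of chromosome 12 (90724552 to 90738438, ENSMUSG00000007682) and shares 100 exon bases with Gm26512 on the opposite strand. WT1, WT2 and WT3 held 4.29, 6.03 and 3.68 CPM, and KO1, KO2 and KO3 held 1.81, 1.24 and 1.34 CPM. The lowest WT library was above the highest KO library, and WT2 was the highest library as for Ucp1, Otop1, Cidea and Elovl3. The means of 4.67 ± 1.22 (SD, n = 3) and 1.55 ± 0.367 CPM (SD, n = 2) differed 3.01-fold, with a log2 fold change of -1.59 ± 0.290 and an edgeR adjusted p of 0.0559.

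The next 4 genes serve fatty acid oxidation and respiration in brown fat, heart and skeletal muscle alike. Cox8b and Cox7a1 encode the tissue-specific subunits 8B and 7A1 of cytochrome c oxidase, the last complex of the respiratory chain. Both lie on chromosome 7, Cox8b on the minus strand (140898945 to 140900446, ENSMUSG00000025488) and Cox7a1 on the plus strand (30184144 to 30186078, ENSMUSG00000074218). For Cox8b the WT libraries held 35.6, 41.0 and 26.9 CPM and the KO libraries 20.4, 9.75 and 8.72 CPM. For Cox7a1 the WT libraries held 43.1, 33.5 and 27.4 CPM and the KO libraries 19.6, 12.2 and 12.1 CPM. In neither gene did the groups overlap, but KO1 lay 2.21-fold (Cox8b) and 1.61-fold (Cox7a1) above the mean of KO2 and KO3. The log2 fold changes were -1.22 ± 0.380 (edgeR adjusted p = 0.125) for Cox8b and -1.13 ± 0.284 (0.0873) for Cox7a1.

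Cpt1b, the muscle-type carnitine palmitoyltransferase that admits long-chain fatty acids to the mitochondrion, showed the same order of libraries as Cox7a1 in WT. It lies on the minus strand of chromosome 15 (89416405 to 89425863, ENSMUSG00000078937), and 2744 of its exon bases are shared with Gm44502 on the same strand, so reads there cannot be told apart. WT1, WT2 and WT3 held 4.17, 3.68 and 3.03 CPM, and KO1, KO2 and KO3 held 1.81, 0.838 and 1.11 CPM. The groups did not overlap and KO1 was again the highest KO library, 1.85-fold above the mean of the other two. The log2 fold change was -1.38 ± 0.322 (edgeR adjusted p = 0.0765).

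Fabp3, the heart-type fatty acid binding protein that carries fatty acids in the cytosol of oxidative cells, had the smallest adjusted p of the 10 genes. Fabp3 is on the plus strand of chromosome 4 (130308595 to 130315463, ENSMUSG00000028773) and shares 80 exon bases with Gm10570 and 81 with Zcchc17 on the opposite strand. The WT libraries held 31.4, 21 and 22.9 CPM and the KO libraries 11.7, 12.1 and 11.4 CPM. Here WT1 was the highest library and WT2, the highest for Ucp1, was the lowest of the WT libraries, still above every KO library. The log2 fold change was -1.10 ± 0.197 (edgeR adjusted p = 0.0550).

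Prdm16, the transcriptional coregulator that commits precursors to the brown and beige fat lineage and that many other cells also express, was the exception among the 10 genes. It lies on the minus strand of chromosome 4 (154316125 to 154636873, ENSMUSG00000039410) and shares 109 exon bases with B230104I21Rik on the opposite strand. The WT libraries held 49.1, 46.9 and 43.9 CPM, and the KO libraries 37.6, 52.9 and 49.4 CPM. KO2 and KO3 were above and KO1 below every WT library, so the groups overlapped. The means of 46.6 ± 2.61 (SD, n = 3) and 44.4 ± 9.55 CPM (SD, n = 2) gave a log2 fold change of -0.06 ± 0.145 (edgeR adjusted p = 0.815), and its sign depended on the libraries and scaling used.

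**Figure D2:**
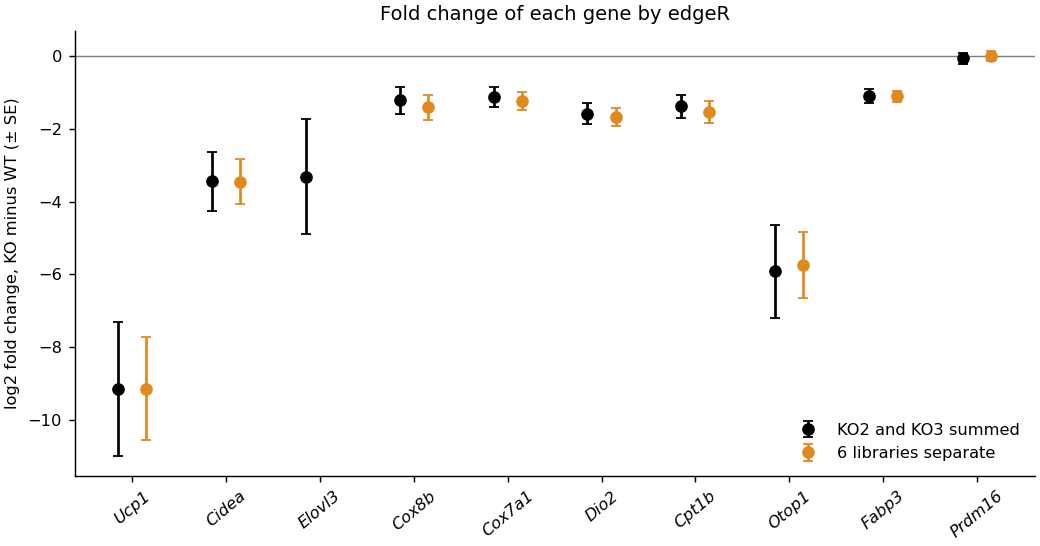
Log2 fold change (KO against WT) of each gene with KO2 and KO3 summed and with the 6 libraries separate, with bars of 1 SE. All genes but Prdm16 lie below 0 in each fit in which they were tested, from -1.10 for Fabp3 to -9.15 for Ucp1 with KO2 and KO3 summed.

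With KO2 and KO3 as 1 sample, 0 of the 10 genes were called at an adjusted p of 0.05 by edgeR, where 0.906% of all 18660 genes tested were called lower in KO. At an unadjusted p of 0.05, 8 of the 10 genes passed, all of them lower in KO, against 13.4% of all genes tested. Kept as 6 separate libraries, 9 of the genes passed the filter on low counts (Elovl3 did not) and 8 were called lower, against 9.07% of all genes tested. The adjusted p-values were then 0.00955 for Fabp3, 0.0104 for Dio2, 0.0119 for Ucp1, 0.0125 for Otop1, 0.0166 for Cidea, 0.0207 for Cpt1b, 0.0212 for Cox7a1 and 0.0390 for Cox8b. That count treats KO2 and KO3 as independent mice, as they are labelled. DESeq2 with KO2 and KO3 summed also called 8 of the 10 genes lower, against 10.4% of all genes.

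The 8 genes in which every KO library was below every WT library compare with 20.8% of all genes tested (3872 of 18660). Without WT3 and KO1, WT1 and WT2 against the sum of KO2 and KO3 gave 8 of the 10 genes as lower by edgeR, against 5.88% of all genes, with adjusted p-values from 6.32e-05 (Cox8b) to 0.0130 (Fabp3). In that comparison a single KO sample was assumed to vary as the WT samples do. Cox8b was the gene whose value depended most on KO1 among those with ample counts, with a log2 fold change of -2.05 there, -1.90 without KO1 alone and -0.76 without KO2 and KO3. The sizes differed between the pairs of libraries that resembled each other in their muscle and squamous transcripts, where the direction is set by the lack of overlap. WT3 was 65.8-fold above KO1 for Ucp1, 3.4-fold for Cidea, 2.04-fold for Dio2, 1.96-fold for Fabp3 and 1.32-fold for Cox8b, while the mean of WT1 and WT2 was above the mean of KO2 and KO3 by 777-fold, 14.7-fold, 4.0-fold, 2.24-fold and 4.14-fold.

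The 10 genes differed widely in how much they varied among the WT lungs. The SD of log2(CPM + 0.1) over the 3 WT libraries was 2.23 for Ucp1, 1.76 for Elovl3, 1.27 for Cidea and 1.01 for Otop1, against a median of 0.10 over all genes tested. Only 0.938% of genes varied more than Ucp1 in WT, and 2.32% more than Otop1. Dio2 and the genes shared with muscle varied less, with an SD of 0.36 for Dio2, 0.33 for Cox7a1, 0.31 for Cox8b, 0.30 for Fabp3 and 0.22 for Cpt1b. Prdm16 had 0.08. WT2 was the highest WT library for 6 of the genes and WT1 for 4, and WT3 was the lowest for 9. Summed over the 10 genes, WT1, WT2 and WT3 held 242, 338 and 144 CPM, and KO1, KO2 and KO3 held 95.4, 91.6 and 86.7 CPM. Prdm16, which many other cells express, made up 49.1, 46.9 and 43.9 CPM of the WT sums. In KO1, KO2 and KO3 it made up 37.6, 52.9 and 49.4 CPM, and Ucp1 at most 0.137 CPM.

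Scaled by exon length, the order of the levels changed between the groups. In WT the most abundant transcripts were Cox8b (95.8 ± 19.7 CPM per kb, SD, n = 3), Cox7a1 (64.8 ± 14.8), Ucp1 (38.3 ± 39.1), Fabp3 (30.5 ± 6.74) and Cidea (23.0 ± 17.4). Prdm16 followed at 5.0 ± 0.280 CPM per kb, and Cpt1b (1.07 ± 0.169), Otop1 (0.964 ± 0.743), Dio2 (0.802 ± 0.209) and Elovl3 (0.293 ± 0.404) were lowest. The Ucp1 level in WT did not differ from that of its neighbours Cox7a1 and Fabp3 beyond its spread, nor did that of Otop1 from its neighbours Cpt1b and Dio2. The level of Cpt1b is uncertain on this scale, since it is divided by all of its exon bases and reads in those shared with Gm44502 may not have been counted for it. In KO, Cox8b (41.2 ± 21.9, SD, n = 2), Cox7a1 (29.7 ± 9.81) and Fabp3 (14.2 ± 0.0256) were still the most abundant, Prdm16 (4.76 ± 1.02) came next above Cidea (2.11 ± 0.00183), and Ucp1 stood at 0.0648 ± 0.00940 CPM per kb, above only Elovl3 (0.0272 ± 0.0157) and Otop1 (0.0133 ± 0.0188).

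Cox8b, Cox7a1 and Cpt1b each have a paralogue used by most other tissues, and the share of each pair was computed per exon length. COX8A and COX7A2 are the ubiquitous forms of the same oxidase subunits, and CPT1A the liver-type form of the transferase. Cox8b made up 42.5%, 44.2% and 34.7% of Cox8b plus Cox8a in WT1, WT2 and WT3, and 23.5%, 13.2% and 12.9% in KO1, KO2 and KO3. Cox7a1 made up 46.6%, 40.2% and 39.8% of Cox7a1 plus Cox7a2 in WT and 27.5%, 20.1% and 20.9% in KO. The share of Cpt1b in Cpt1b plus Cpt1a was 6.11%, 5.6% and 3.58% in WT and 2.25%, 1.33% and 1.75% in KO, percentages that may be too low in all libraries given the bases shared with Gm44502. The KO shares of these 3 genes, whose KO levels were also below every WT level in CPM, as in 20.8% of all genes tested, were below the WT shares, whereas the share of Cidea in Cidea plus Cidec, the fat cell form, overlapped (16.9% to 46.9% in WT and 13.2% to 21.2% in KO). The ubiquitous partners were not lower, with log2 fold changes of 0.36 (Cox8a, edgeR adjusted p = 0.0506), 0.08 (Cox7a2, 0.653) and 0.03 (Cpt1a, 0.924).

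The share of Fabp3 in Fabp3 plus Fabp4, the fat cell form, ran the other way, at 43.7%, 23.5% and 37.6% in WT and 71.5%, 49.0% and 47.4% in KO, and Fabp4 differed more (log2 fold change -2.50, edgeR adjusted p = 0.0698) than Fabp3. Ucp2, the uncoupling protein gene of many cell types including leukocytes, held 394 to 540 CPM in WT and 563 to 587 CPM in KO (log2 fold change 0.35, edgeR adjusted p = 0.209). Mecom, the paralogue of Prdm16, had a log2 fold change of -0.10 (0.578). A list of paralogues of the 10 genes, which also holds Cox6a1 and Cox6a2 of another oxidase subunit family, had 26 genes tested. Of these, 19 had a positive and 7 a negative log2 fold change, with a median of 0.29 and none called (3 higher and 2 lower with 6 separate libraries), where the 10 genes themselves had a median of -1.49 and all tested genes one of 0.02. With 6 separate libraries, 9.07% of all genes tested were called lower.

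**Figure D3:**
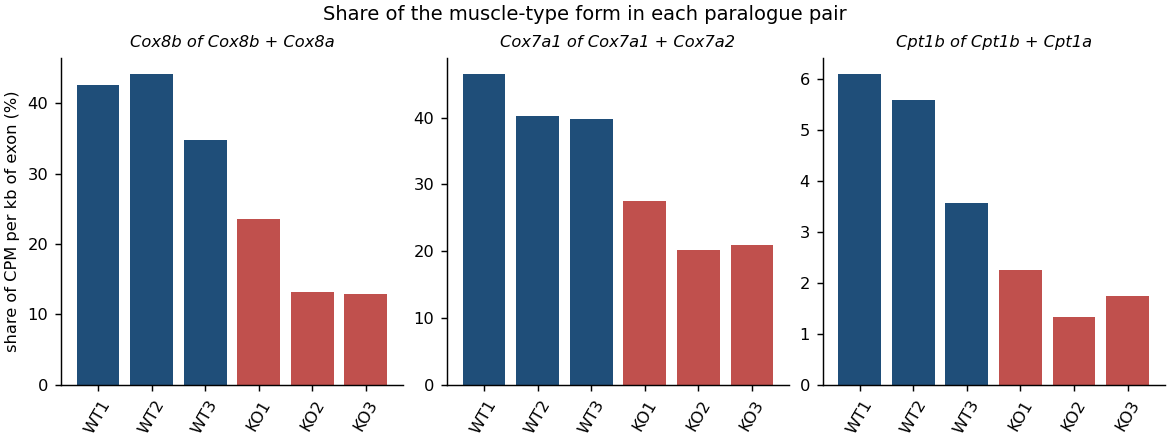
Share (percent, per exon length) of the brown fat or muscle form in its pair with a paralogue, by library, with WT in blue and KO in red. The share of Cox8b lies between 34.7% and 44.2% in WT and between 12.9% and 23.5% in KO.

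Markers of white adipocytes and cardiomyocytes had mostly negative log2 fold changes, as the 10 genes did. All 25 genes of the white adipocyte list, which holds genes common to white and brown fat such as the adipokine Adipoq and the lipid droplet coat gene Plin1, were detected in every library, and none was at or below 3 counts in any. Their sum was 2425, 3127 and 2428 CPM in WT and 1055, 1058 and 1067 CPM in KO, 2.51-fold lower in KO. Of the 25, 23 had a negative log2 fold change. Of all genes tested, 0.906% were called lower (9.07% with 6 separate libraries). Among the 25, edgeR called 9 lower and 1 higher, or 20 lower and 1 higher with 6 separate libraries. Those that fell included Lpl, the lipoprotein lipase (-1.04, edgeR adjusted p = 0.0251), the adipocyte amine oxidase Aoc3 (-2.06, 0.0251), Sncg (-1.68, 0.0251), Plin4 (-1.89, 0.0446) and Plin1 (-3.22, 0.0496), and G0s2, an inhibitor of lipolysis, rose (0.97, 0.0268).

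Of the 26 cardiomyocyte markers, 25 had a negative log2 fold change. With KO2 and KO3 summed edgeR called none (0.906% of all genes lower). With 6 separate libraries it called 11 of these markers lower (9.07% of all genes). Their sum was 9175, 4098 and 4082 CPM in WT and 2989, 1724 and 1740 CPM in KO. Myh6, the heart myosin heavy chain, held 2306, 1072 and 786 CPM in WT and 388, 360 and 364 CPM in KO (log2 fold change -1.88, edgeR adjusted p = 0.0964). The atrial gene Bmp10 had 2578, 0 and 532 counts over the WT libraries and 0 in each KO library. The skeletal muscle and squamous sums followed WT3 and KO1 and not the genotype. They were 163, 120.5 and 5083 CPM in WT and 7532, 91.5 and 88.3 CPM in KO for skeletal muscle, and 18.6, 15.4 and 4641 CPM in WT and 8888, 14.1 and 13.3 CPM in KO for squamous epithelium, so KO2 and KO3 were below every WT library. Of the 22 and 15 genes, 18 and 15 had a positive log2 fold change, and none passed an unadjusted p of 0.05. The fast myosin gene Myh4 had 15, 0 and 5271 counts over the WT libraries and 10705, 2 and 3 over the KO libraries. The part of these cell types in the values of the 10 genes was not tested.

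**Figure D4:**
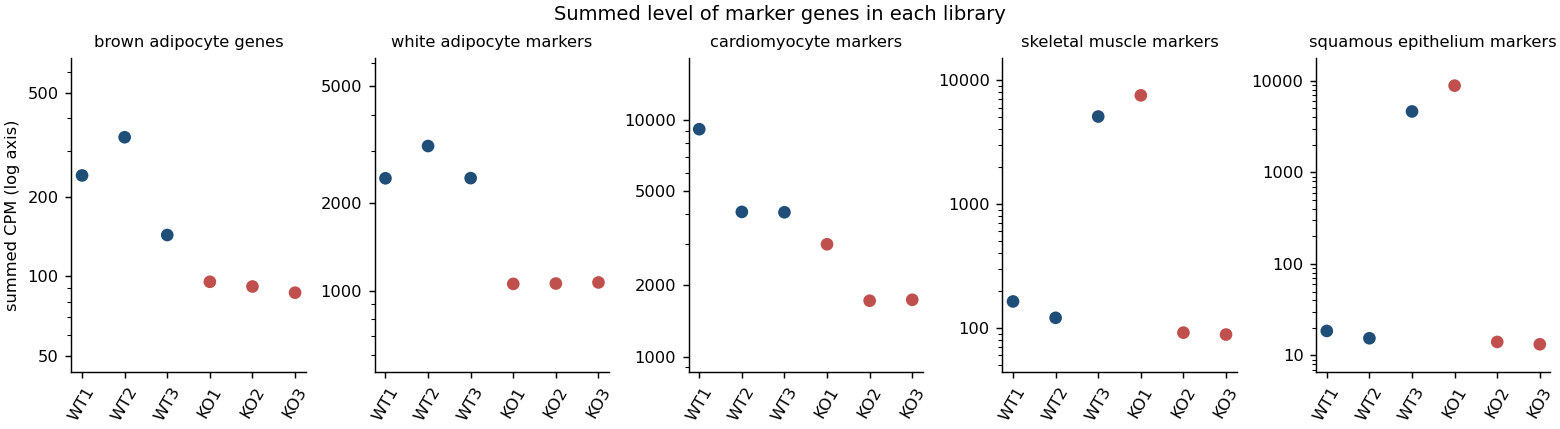
Summed CPM (log axes) of the 10 genes and of the white adipocyte, cardiomyocyte, skeletal muscle and squamous epithelium marker lists in each library. The white adipocyte sum is 2425 to 3127 CPM in WT and 1055 to 1067 CPM in KO, and the skeletal and squamous sums stand out in WT3 and KO1.

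Set against the white adipocyte markers in the same library, the 10 genes differed among themselves. Per 100 CPM of those markers, Ucp1 stood at 2.04, 4.23 and 0.258 CPM in WT1, WT2 and WT3 and at 0.00902, 0.00914 and 0.0128 CPM in KO1, KO2 and KO3, a 217-fold difference of the means. Otop1 stood at 0.0873, 0.200 and 0.0651 CPM in WT and at 0, 0.00762 and 0.00963 CPM in KO. Cidea stood at 0.933, 1.48 and 0.329 CPM in WT and at 0.223, 0.224 and 0.218 CPM in KO, a 4.12-fold difference. For these 3 genes every KO ratio was below every WT ratio, as it was for 0.456% of all genes tested, though the lowest Cidea ratio in WT was close to those of KO. For 6 genes the ratios overlapped. Fabp3 stood at 1.30, 0.672 and 0.944 CPM in WT and 1.11, 1.14 and 1.07 CPM in KO, and Cox7a1 at 1.78, 1.07 and 1.13 CPM in WT and 1.86, 1.16 and 1.13 CPM in KO. Prdm16 was higher in every KO library, at 3.57 to 5.0 CPM against 1.5 to 2.02 CPM in WT, as were 88.9% of all genes tested, since the markers in the denominator were 2.51-fold lower in KO. With 3 WT and 2 KO samples an exact two-sided permutation test of such a ratio cannot go below p = 0.1, and none is given.

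**Figure D5:**
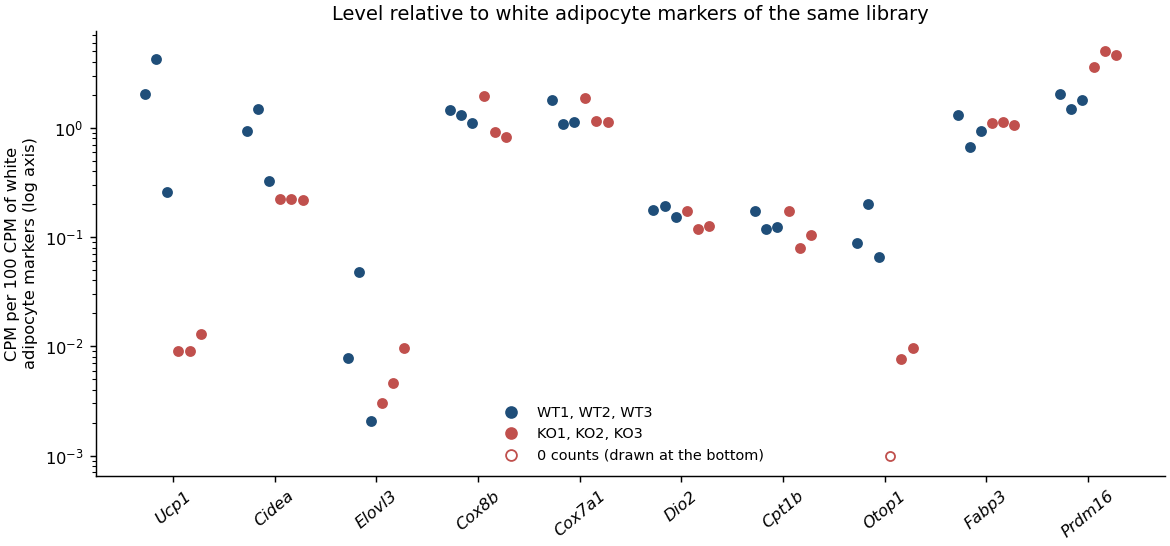
CPM of each gene per 100 CPM of the white adipocyte markers in the same library (log axes), WT in blue and KO in red. Ucp1 lies at 0.258 to 4.23 in WT and at or below 0.0128 in KO, the Fabp3 values overlap, and Prdm16 is higher in all KO libraries.

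Other genes of the brown fat programme gave a mixed picture. Of 36 regulators and signalling genes 32 were tested, 20 with a negative and 12 with a positive log2 fold change and a median of -0.19. Of all genes tested, 0.906% were called lower (9.07% with 6 separate libraries). Among the 32, 3 were called lower (11 lower and 1 higher with 6 separate libraries). The 3 were Klb, the coreceptor for FGF21 (2.18 to 3.70 CPM in WT and 0.0793 to 0.223 CPM in KO, log2 fold change -4.27), Ppara, a nuclear receptor that drives fatty acid oxidation (7.78 to 10.8 and 3.58 to 3.85 CPM, -1.32) and Adra1a, an alpha 1-adrenergic receptor (27.3 to 29.2 and 15.2 to 17.8 CPM, -0.74), each with an edgeR adjusted p of 0.0446. Adrb3, the beta 3-adrenergic receptor, held 32.9 to 56.3 CPM in WT and 17.6 to 19.9 CPM in KO (-1.14, edgeR adjusted p = 0.0806), and Ppargc1a, the gene of PGC-1alpha, held 12.5 to 17.7 CPM in WT and 8.74 to 10.5 CPM in KO (-0.68, 0.0897). The brown fat transcription factor gene Ebf2 held 4.61 to 6.85 CPM in WT and 0.343 to 1.60 CPM in KO (-2.36, 0.0700). Other regulators had positive values, among them Cebpb (29.4 to 42.3 CPM in WT and 56.4 to 71.6 CPM in KO, log2 fold change 0.87, edgeR adjusted p = 0.0679), Tbx1 (0.66, 0.138) and Zbtb16 (0.58, 0.328). The most abundant regulators, Vegfa, Cebpa and Fgfr1, had log2 fold changes of -0.04, 0.10 and 0.02, with edgeR adjusted p-values of 0.867, 0.499 and 0.928.

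Of 47 genes of brown fat metabolism, all tested, 36 had a negative and 11 a positive log2 fold change, and the median was -0.40. Of all genes tested, 0.906% were called lower (9.07% with 6 separate libraries). Among the 47, 1 was called lower (19 lower and 1 higher with 6 separate libraries). That was Acsl1, the acyl-CoA synthetase that activates fatty acids, which held 164 to 204 CPM in WT and 99.6 to 104 CPM in KO (log2 fold change -0.82, edgeR adjusted p = 0.0448). Atp2a2, the calcium pump gene of heart and slow muscle, held 800 to 1590 CPM in WT and 460 to 478 CPM in KO (-1.24, 0.0922).

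The genes whose levels across the 6 libraries lay closest to those of a member were ranked by the mean absolute difference of centred log2(CPM + 0.1) over 15149 genes. For Ucp1 the nearest were Otop1 (1.61), the atrial natriuretic peptide gene Nppa (1.77), the neural adhesion gene Cntn2 (1.86), Pck1 of glycerol synthesis (1.91) and Klb (1.99), where the median over all genes was 3.69. For Cidea they were Aqp7, the glycerol channel of fat cells (0.39), Cntn2 (0.44), Klb (0.46), the immunoglobulin segment Igkv3-2 (0.47) and Tmem45b (0.51), with a median of 1.54 over all genes. Among those nearest to Cox8b were C1qtnf9 (0.17), Dgat2 of triglyceride synthesis (0.18), the insulin-responsive glucose transporter gene Slc2a4 (0.19) and Pdk4 (0.20), with a median of 0.78. Aqp7 counts were 502, 598 and 319 for WT against 45, 53 and 38 for KO. Slc2a4 counts were 3459, 3463 and 2877 for WT against 2393, 880 and 803 for KO, with the KO1 excess that Cox8b also showed. The difference grows with the size of a member's change, as the medians did, so its values cannot be compared between Ucp1, Cidea and Cox8b. Nppa, near to Ucp1 by this measure, had 107614, 10233 and 19300 counts in WT, another order of libraries than Ucp1.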

How the data were processed

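Whole-lung RNA of 3 WT and 3 KO mice collected at ZT 7 was sequenced. Per the submitters' processing notes, the authors used Trimmomatic 0.36, STAR 2.5.3a, Picard 2.9.0 and HTSeq 0.6.0, and deposited raw counts of reads per gene on GRCm38. The strand setting of the counting was not given in the sources used here, so reads of overlapping antisense genes may not be told apart. Gene positions and exon lengths (union of all transcripts) are from GENCODE M21, promoters from RefSeq GRCm38.p6.

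The deposited counts were tested with edgeR 4.0.16 (R 4.3.3): filterByExpr, TMM scaling, the quasi-likelihood test over all genes of both groups, and Benjamini-Hochberg adjustment over all genes tested, called at 0.05. KO2 and KO3 were summed as described. CPM used TMM-scaled library totals of the 6 libraries. The steps were tested on simulated counts in which all genes had the same small relative spread beyond counting. That test checks the code and does not cover the spread of Ucp1 and the other variable genes. Alternatives were the 6 libraries separate, a replicate block, library size alone, DESeq2 size factors, no filter, at least 10 counts in every sample, DESeq2 1.42.0, a length offset, and each library left out. The 10 genes and the gene lists were chosen with earlier results of these data known, and WT1 and WT2 against KO2 and KO3 was added after seeing the data. Other genes were named by fixed rules: those called (at most 6 by p) and the most abundant of each list, the paralogues of the 10 genes, and the 5 nearest in pattern. Some genes that these rules name are not reported here. Adrb3, Ppargc1a, Ebf2, Cebpb, Tbx1, Zbtb16, Adipoq, Plin1, Myh6, Bmp10 and Myh4 were named after their values were seen. Fabp4, Ryr2, Ucp2, Ucp3 and Cpt1a are in more than 1 list.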

Additional observations from a re-analysis of the deposited data

How the results depend on the processing

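Over the 16 alternatives, 153 values of the 10 genes were computed. Of these, 149 had the direction KO below WT, and the 4 above 0 were all Prdm16 (log2 fold change -0.31 to 0.13). The number of genes called of all tested, 426 with KO2 and KO3 summed, was 3402 with 6 separate libraries, 1157 with those and a replicate block, 909 with at least 10 counts in every sample, 3919 with DESeq2, 4 with the length offset, 2256 for WT1 and WT2 against KO2 and KO3, and 0 to 418 with 1 library or the KO2 and KO3 sum left out (0 without WT1, WT2, WT3 or KO2 and KO3, 17 without KO1). The number of the 10 genes called, 0 with KO2 and KO3 summed, was 8, 7 (those of the 8 but Cox8b, adjusted p = 0.0509), 2 (Dio2 and Fabp3), 8, 0 and 8 in the same order, and 0 in every fit with a library left out. The cause was not tested. The replicate block rests on numbers that do not pair the mice: same-numbered deviations correlated at -0.66, 0.75 and -0.82. Adjusted p-values over the alternatives ran from 7.66e-10 to 0.189 for Ucp1 and from 2.25e-06 to 0.189 for Fabp3. Elovl3 (0.0707 to 0.451) and Prdm16 (0.128 to 0.998) were called in none. Depth limits Elovl3, and Ucp1 and Otop1 in KO, where counts were 0 to 8.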
